A study of Mus musculus with 7 samples.

Results

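Baiap3, Bzrap1 and Ttn are 3 genes that had many more reads in splenic CD4+CD25+ cells of aged mice than in those of young mice. They were picked by name because of this age difference, out of 47729 gene identifiers counted, of which 13904 had enough reads to be tested. All 3 passed the filter on low counts, with at least 91 reads in every library. The study asked how splenic regulatory T cells (Tregs) of aged and young mice differ, as one part of its work on cognition after surgery. RNA-sequencing covered 3 aged libraries from 18-month mice and 4 young libraries from 8-week mice, labelled as biological replicates, and the methods of the study give the young mice a slightly older age. All mice were male C57BL/6 animals of the WT genotype with no treatment in the labels. The cells were isolated from spleen with a magnetic bead kit for CD4+CD25+ cells, so any other splenic cell left in the preparation was sequenced too. How many mice gave each library is not given in the sources used here, and p-values measure the spread between these libraries.

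Baiap3 encodes a protein with C2 domains of the Munc13 family, which prepares vesicles for fusion and is best known for dense-core vesicles of neurons and endocrine cells. Bzrap1 (Tspoap1 in newer annotation) encodes RIM-binding protein 1, a scaffold with SH3 and fibronectin domains that links RIM proteins to calcium channels where vesicles fuse, and it also binds the mitochondrial translocator protein TSPO. Ttn encodes titin, the giant elastic protein that spans from the Z-disc to the M-band of striated muscle sarcomeres. None of the 3 is a usual marker of Tregs.

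The promoters are shown because the 3 genes rose together and their upstream sequences can be set side by side. RefSeq promoter windows on GRCm38.p6, from 250 bases before to 50 bases after the start of the transcript, were at hand for 2 of the 3 genes, Baiap3 and Ttn. The Baiap3 window lies at chr17:25256315-25256614 and the Ttn window at chr2:76982498-76982797, both on the minus strand. Each is written 5′ to 3′, and capitals mark an E-box (CANNTG), the SP/KLF motif (GGGCGG) or the MEF2 motif (CTA and TAG 4 bases apart), read on either strand.
Baiap3: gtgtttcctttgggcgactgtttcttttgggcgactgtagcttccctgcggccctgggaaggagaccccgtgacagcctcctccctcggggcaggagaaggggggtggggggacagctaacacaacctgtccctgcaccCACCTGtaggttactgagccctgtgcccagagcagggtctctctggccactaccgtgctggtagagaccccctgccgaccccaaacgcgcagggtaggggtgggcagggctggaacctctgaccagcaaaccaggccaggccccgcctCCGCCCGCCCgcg
Ttn: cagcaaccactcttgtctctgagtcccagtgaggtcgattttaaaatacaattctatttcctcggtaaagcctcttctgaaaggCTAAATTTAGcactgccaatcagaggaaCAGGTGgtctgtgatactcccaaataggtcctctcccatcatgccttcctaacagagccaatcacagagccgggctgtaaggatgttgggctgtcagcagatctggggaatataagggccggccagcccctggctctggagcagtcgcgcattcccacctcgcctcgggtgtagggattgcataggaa

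The windows differed in composition. GC content was 66.3% for Baiap3 and 51.7% for Ttn, beside a median of 52.7% over 32851 windows of all genes. Baiap3 held 14 CpG dinucleotides and Ttn 8, beside a median of 7. Each window held 1 E-box, at position -111 of Baiap3 and -138 of Ttn with the start counted as 0, and 72.3% of all windows hold an E-box. Both E-boxes read CAGGTG on one of the strands, a form found in 20.2% of windows that was looked up after the sequences had been seen. The Baiap3 window held 2 overlapping SP/KLF motifs just after the start and Ttn held 0, whereas 35.7% of all windows hold this motif. The Ttn window held 1 MEF2 motif at position -166, a motif named for muscle transcription factors and found in 3.69% of windows, and Baiap3 held 0. Both windows held the ETS core GGAA, 4 times for Baiap3 and 6 times for Ttn, as do 96.0% of windows, and 1 NF-kappa B motif (GGG and CC 5 bases apart), as do 50.8%. The AP-1 (TGANTCA), Runx (TGTGGT), forkhead (TGTTTAC) and TATA box (TATAAA) letters were found in neither window, and 7.81%, 16.8%, 3.65% and 13.6% of windows hold them, respectively. These matches describe the letters only.

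The libraries held 10734234 to 13649310 reads on genes. Reads of mitochondrial genes were 10.7%, 5.08% and 5.53% of the aged libraries and 2.63% to 3.23% of the young libraries. The cells were checked by Foxp3, Cd4 and Il2ra. Foxp3, the transcription factor of Tregs, was at 516 ± 93.3 CPM (counts scaled to library size; mean ± SD) in aged and 446 ± 61.8 in young libraries. Cd4 was at 441 ± 6.34 and 545 ± 62.1, and Il2ra, which encodes CD25, was at 380 ± 87.0 and 579 ± 94.3. By edgeR 0 of these 3 genes were called between ages, with 2 at an unadjusted p under 0.05, 2 called by DESeq2 (Cd4 and Il2ra) and 1 by limma voom (Il2ra). Foxp3 is uncertain because 31.5% of its exonic bases overlap another gene. Levels are CPM after TMM scaling, which evens out differences in library composition. Levels of different genes are compared per kilobase (kb) of exon.

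Baiap3 was the gene with the tightest aged levels of the 3. The gene (ENSMUSG00000047507) lies at chr17:25242659-25256364 on the minus strand of GRCm38 and spans 13706 bases, with 33 exon blocks and 5112 exonic bases. Aged replicates 1 to 3 held 833, 750 and 840 reads on Baiap3, and young replicates 1 to 4 held 91, 114, 124 and 122. Scaled levels of Baiap3 were 72.8, 75.5 and 78.6 CPM in aged libraries. They were 7.95, 7.99, 9.79 and 8.74 CPM in young libraries. The aged libraries thus all lay far above the young libraries, and the lowest aged level was 7.43 times the highest young level. Mean levels of Baiap3 were 75.6 ± 2.92 CPM (SD, n = 3) and 8.62 ± 0.863 CPM (SD, n = 4), a ratio of 8.78. The fitted log2 fold change was 3.13 with a standard error (SE) of 0.108. The coefficient of variation of Baiap3 was 3.85% among aged and 10.01% among young libraries. The chi-square of the reads divided by its degrees of freedom was 1.24 in aged and 1.10 in young libraries for Baiap3. This quotient would be near 1 if reads were independent molecules, which the cDNA, without molecular identifiers, does not ensure, so it only describes the spread. Of its exonic bases, 2.74% overlap another gene, Tsr3, so nearly all of the gene is read without ambiguity.

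Bzrap1 had the largest age difference of the 3. The gene (ENSMUSG00000034156) lies at chr11:87760541-87785928 on the plus strand and spans 25388 bases, with 31 exon blocks, 9499 exonic bases and no exonic overlap with another gene. Aged replicates 1 to 3 held 1244, 1310 and 1074 reads on Bzrap1, and young replicates 1 to 4 held 122, 126, 125 and 137. Scaled levels of Bzrap1 were 108.7, 131.9 and 100.5 CPM in aged libraries. They were 10.7, 8.83, 9.87 and 9.82 CPM in young libraries. The groups did not overlap, and the lowest aged level was 9.43 times the highest young level. Mean levels of Bzrap1 were 113.7 ± 16.3 CPM (SD, n = 3) and 9.80 ± 0.751 CPM (SD, n = 4), a ratio of 11.6. The fitted log2 fold change was 3.54 (SE 0.122). In young libraries the same quotient was 0.748 for Bzrap1. Aged libraries of Bzrap1 spread more widely, at 24.0 on that scale, with a coefficient of variation of 14.3% against 7.67% in young libraries. Aged replicate 2 was the highest of the 3.

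Ttn had the smallest age difference of the 3 and the widest spread among young libraries. The gene (ENSMUSG00000051747) lies at chr2:76703980-76982547 on the minus strand and spans 278568 bases, with 345 exon blocks and 116825 exonic bases, of which 0.388% overlap another gene. Aged replicates 1 to 3 held 1214, 885 and 996 reads on Ttn, and young replicates 1 to 4 held 256, 263, 269 and 193. Scaled levels of Ttn were 106.1, 89.1 and 93.2 CPM in aged libraries. They were 22.4, 18.4, 21.2 and 13.8 CPM in young libraries. Again the groups did not overlap, and the lowest aged level was 3.98 times the highest young level. Mean levels of Ttn were 96.1 ± 8.84 CPM (SD, n = 3) and 19.0 ± 3.80 CPM (SD, n = 4), a ratio of 5.07. The fitted log2 fold change was 2.34 (SE 0.162). Ttn had a quotient above that of Baiap3 at both ages, 8.82 in aged and 10.1 in young libraries, with a coefficient of variation of 9.20% and 20.1%. Young replicate 4 was the lowest young library for Ttn, and aged replicate 1 the highest aged library.

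**Figure D1:**
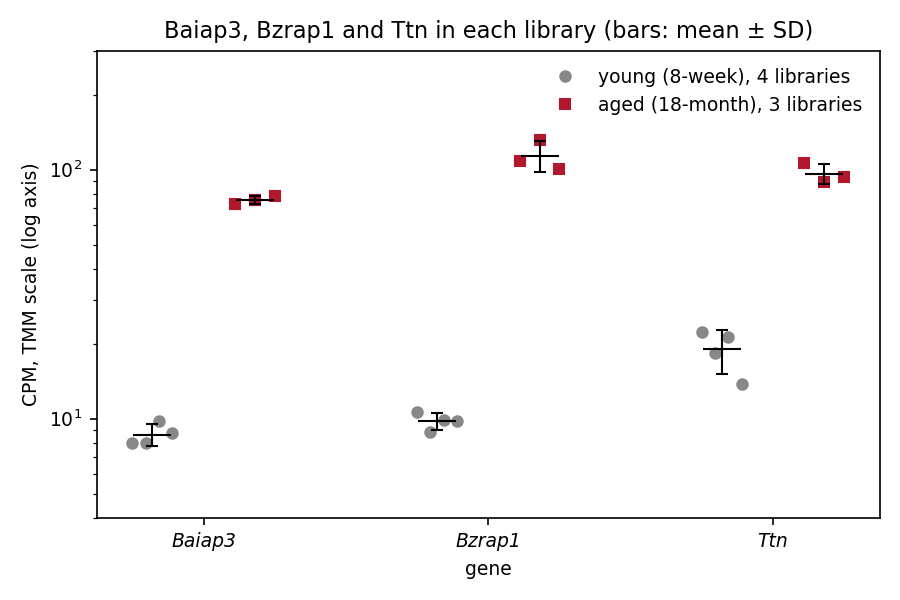
CPM on a log axis for Baiap3, Bzrap1 and Ttn, with 1 grey circle for each of the 4 young libraries, 1 red square for each of the 3 aged libraries, and black bars for mean ± SD. Every aged library lies above every young library for each gene, with the narrowest gap for Ttn, where the lowest aged value is 89.1 and the highest young value 22.4.

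As plotted by library, the 3 genes shared the gap between ages but not the order of the aged libraries. The highest aged library was replicate 3 for Baiap3, replicate 2 for Bzrap1 and replicate 1 for Ttn. Because the 3 genes were chosen on this contrast, these differences are a description and carry no test. Among all 13904 genes tested, 15.5% had every aged library above every young library. By the edgeR test that gave the fold changes, 16.7% of all genes were called at an adjusted p under 0.05, 9.8% higher in aged and 6.94% lower. All 3 genes were among those called higher, which their choice had fixed. Ranked by p over all genes tested, Baiap3 stood at place 1, Bzrap1 at place 2 and Ttn at place 13. Ranked by log2 fold change they stood at places 66, 45 and 170. Both rankings come from the contrast on which the 3 genes were chosen, so they too are only a description.

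Per length, Baiap3 was the most abundant of the 3 genes and Ttn by far the least. In aged libraries the level was 14.8 ± 0.570 CPM per kb for Baiap3, 11.97 ± 1.72 for Bzrap1 and 0.823 ± 0.0757 for Ttn (SD, n = 3). In young libraries it was 1.69 ± 0.169, 1.03 ± 0.0790 and 0.162 ± 0.0326 CPM per kb in the same order (SD, n = 4). The order was the same at both ages, and the ranges of neighbours in the order did not overlap within an age. Among the genes tested, Baiap3 stood at percentile 26.1 in young and 76.1 in aged libraries by CPM per kb. Bzrap1 moved from percentile 18.8 to 70.9, while Ttn moved from 2.69 to 13.9. Baiap3 and Bzrap1 thus went from the lower range of tested genes to the upper range per length, whereas Ttn stayed among the least abundant genes per length at both ages. Without division by length, Ttn would appear at percentile 84.9 in aged libraries, because its exons are so long. The length used is the union of exons over all annotated transcripts, 25 for Ttn. Shorter forms or uneven coverage of so long a transcript would make its level per kb too low, and neither was examined.

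**Figure D2:**
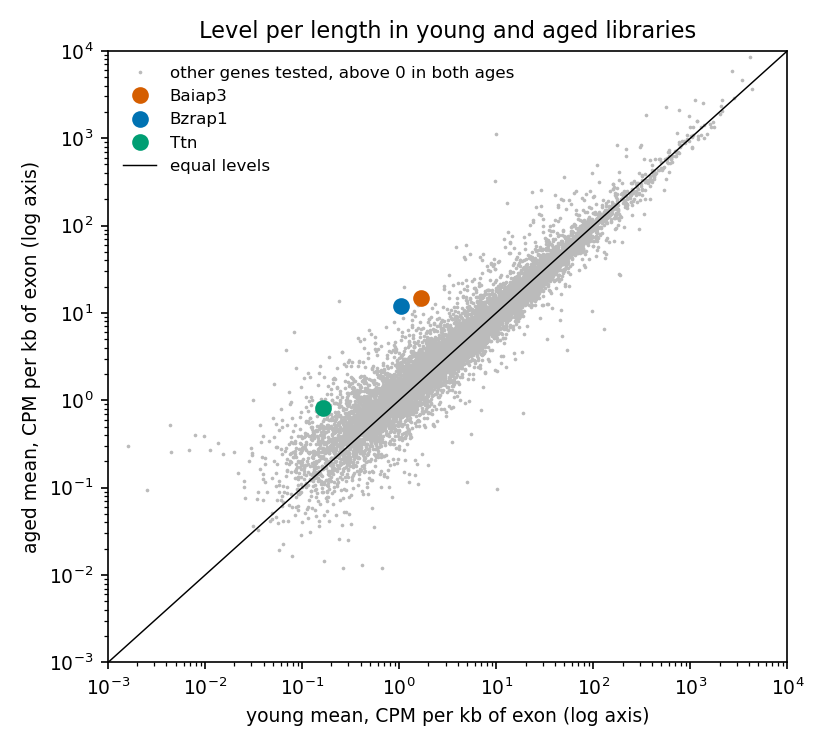
Mean CPM per kb of exon in aged libraries (y, log axis) against young libraries (x, log axis), with a grey point for each gene tested that is above 0 at both ages, coloured points for the 3 genes and a line of equal levels. Baiap3 lies at 1.69 and 14.8, Bzrap1 at 1.03 and 11.97, and Ttn at 0.162 and 0.823, all above the line.

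The genes moved by unequal amounts, as the plot of level per length shows. The ratio of Baiap3 to Bzrap1 per kb was 1.25 ± 0.195 in aged and 1.64 ± 0.190 in young libraries, with overlapping ranges of 1.06 to 1.45 and 1.39 to 1.84. The ratio of Baiap3 to Ttn was 18.1 ± 2.10 in aged and 10.8 ± 2.67 in young libraries, and the ranges did not overlap. The ratio of Bzrap1 to Ttn was 14.7 ± 3.06 and 6.55 ± 1.46, also without overlap. A ratio within a library does not depend on how libraries are scaled. Bzrap1 thus had a higher mean proportion to Baiap3 in aged libraries, with 1 aged library inside the young range, and both were in higher proportion to Ttn in every aged library than in any young library.

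Genes whose pattern was most like each of the 3 were sought among 12146 tested genes whose average log2 CPM reached 1, by the root mean square difference of log2 CPM over the 7 libraries after each gene's mean was subtracted. The measure follows the age difference, so all genes it names were higher in aged libraries. The 3 genes were chosen on that difference, so their choice alone brings them nearer to each other than to most genes. Bzrap1 was the third most like Baiap3, with a difference of 0.255, and Baiap3 was the most like Bzrap1. Ttn differed from Baiap3 by 0.448 and from Bzrap1 by 0.623. Over all these genes the median difference was 1.57 from Baiap3, 1.76 from Bzrap1 and 1.21 from Ttn. The genes closest to Baiap3 were 2610042L04Rik (0.169) and Wfdc17 (0.171), which encodes a small secreted protein with a WAP domain, followed by Bzrap1, H2-Q10 (0.266), a class I histocompatibility gene, and Tub (0.288). Wfdc17 was at 14.6 ± 1.33 CPM in aged and 1.72 ± 0.295 CPM in young libraries. The genes closest to Bzrap1 after Baiap3 were H2-Q10 (0.311), Iglon5 (0.328), an adhesion protein of the IgLON family, Slc7a10 (0.347), an amino acid transporter, and 2610042L04Rik (0.358). The genes closest to Ttn were Art3 (0.161), Naip6 (0.161), Clip3 (0.192), Stfa2l1 (0.204) and Naip5 (0.215). Naip5 and Naip6 encode sensors of bacterial proteins in the inflammasome. Naip5 was at 113.8 ± 14.8 CPM in aged and 21.1 ± 3.78 CPM in young libraries, and Naip6 at 70.4 ± 2.19 and 16.8 ± 2.84. Naip5, Naip6, H2-Q10, Stfa2l1 and 2610042L04Rik have close copies in the genome that can take or lose reads, so their values are uncertain.

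The neighbourhood of the 3 genes was examined for genes that moved with them. Of 58 annotated genes within 250 kb, 28 were tested, and 6 of these (21.4%) were called, 5 higher and 1 lower in aged libraries, beside 16.7% of all genes tested. Each of the 3 genes had 2 called neighbours. The median log2 fold change of the 28 neighbours was 0.18, beside 0.02 over all genes.

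Around Baiap3, 12 neighbours were tested. Tsr3, a gene of ribosomal RNA modification that overlaps Baiap3, rose from 13.4 ± 0.737 to 19.4 ± 3.39 CPM, a log2 fold change of 0.54 (edgeR adjusted p = 0.0375). Gnptg, which takes part in tagging lysosomal enzymes and lies 2.54 kb downstream of Baiap3, rose from 25.4 ± 2.64 to 34.7 ± 3.91 CPM, by 0.45 on the log2 scale (edgeR adjusted p = 0.043). Both calls were lost in 6 of 7 repeats of the test with 1 library removed. Reads of both genes are uncertain because 11.7% of the exonic bases of Tsr3 and 49.5% of those of Gnptg overlap another gene. Uncalled neighbours of Baiap3 included Ift140 (-0.00), Unkl (-0.08), BC003965 (0.09), Cacna1h (0.11), Cramp1l (-0.13), Telo2 (0.20), Clcn7 (0.22), Tmem204 (1.19) and Prss34 (-3.17). Both called neighbours of Baiap3 were thus at or under 0.54, against 3.13 for Baiap3, and the difference of Prss34, in the other direction, was not called.

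Around Bzrap1, 10 neighbours were tested. Rnf43, which encodes a ubiquitin ligase that removes Wnt receptors and lies 25.0 kb upstream of Bzrap1, rose from 20.3 ± 2.67 to 36.7 ± 3.93 CPM, by 0.85 on the log2 scale (edgeR adjusted p = 0.00516), and the call held in all 7 fits without 1 library. Mks1, a gene of the ciliary base 67.3 kb away, rose from 9.99 ± 0.351 to 14.8 ± 1.73 CPM, by 0.57 (edgeR adjusted p = 0.0226), and the call held in 3 of these 7 fits. The gene next downstream, Mpo, which encodes the myeloperoxidase of neutrophils, lies 7.65 kb away and held 536, 224 and 37 reads in the aged libraries and 160, 483, 573 and 140 in the young libraries. Mpo thus varied widely within both ages, while Bzrap1 varied by 1.31-fold between its highest and lowest aged libraries. On the other side, Mir142hg, the host transcript of a blood cell microRNA 3.27 kb upstream, was at 15.1 ± 7.70 CPM in aged and 10.3 ± 1.66 CPM in young libraries and was not called. The remaining uncalled neighbours of Bzrap1 were Supt4a (-0.10), Mtmr4 (-0.10), Dynll2 (0.18), Mir142b (0.76), Sept4 (0.77) and Epx (-1.25).

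Around Ttn, 6 neighbours were tested. Osbpl6, which encodes a lipid-binding protein, rose from 0.400 ± 0.185 to 1.43 ± 0.379 CPM, by 1.81 on the log2 scale (edgeR adjusted p = 0.0213). Sestd1, which encodes a phospholipid-binding protein, fell from 5.49 ± 0.881 to 2.75 ± 0.493 CPM, with a log2 fold change of -0.99 (edgeR adjusted p = 0.0215). Either call held in 4 of the 7 fits without 1 library. The nearest tested genes on both sides of Ttn, Plekha3 at 7.15 kb (0.17) and Ccdc141 at 27.4 kb (-0.02), were not called, nor were Prkra (-0.32) and Fkbp7 (0.65).

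**Figure D3:**
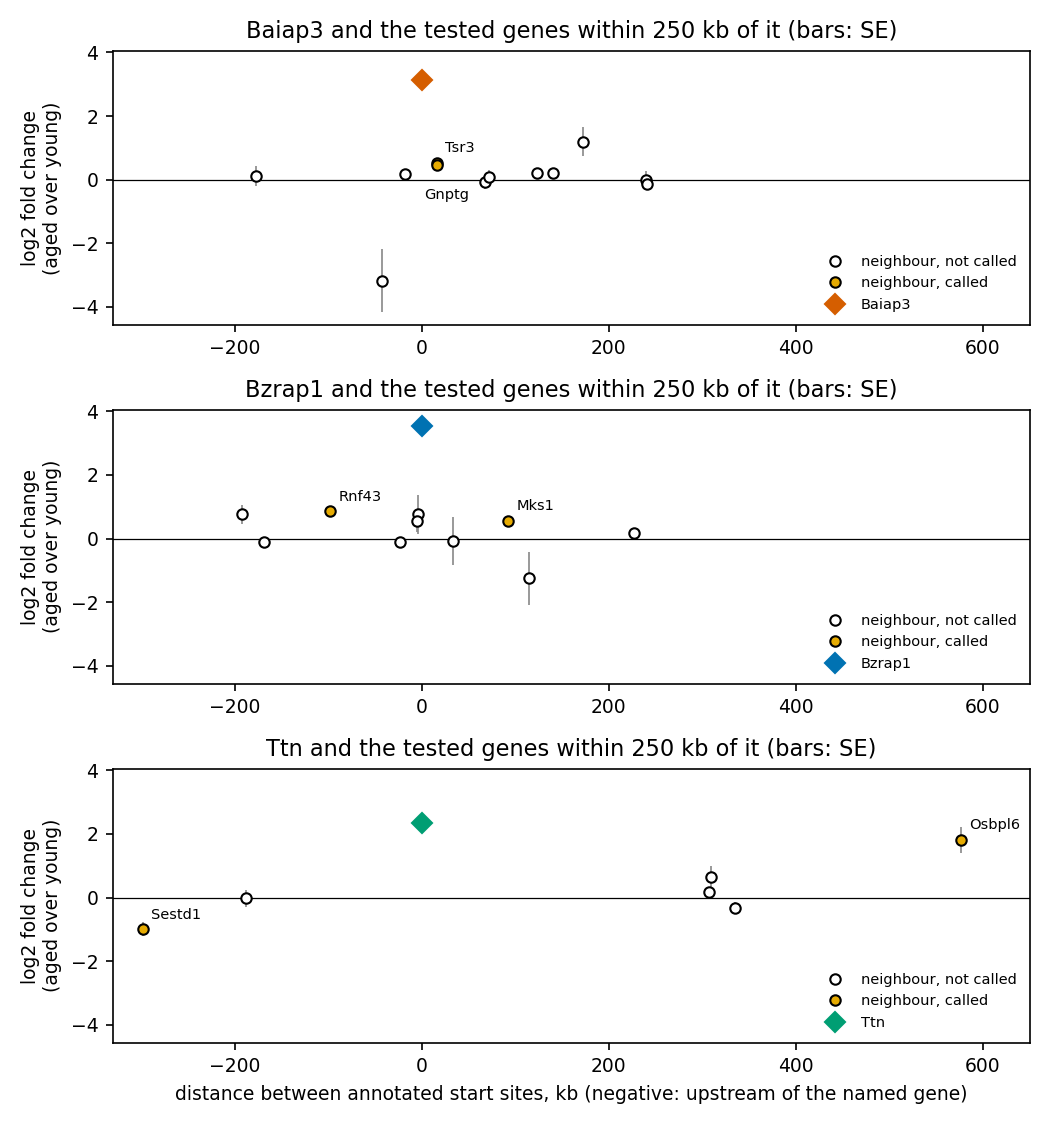
Log2 fold change of aged over young libraries (y) against the distance between annotated start sites in kb (x, negative is upstream), with 1 panel for each of the 3 genes, diamonds for the gene itself, filled circles for called neighbours, open circles for the others, and bars for SE. Distances are between starts and can exceed 250 kb because neighbours were taken from the edge of the gene. Each diamond lies above all neighbours in its panel, at 3.13, 3.54 and 2.34.

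As the plot of neighbours shows, no tested neighbour of Baiap3, Bzrap1 or Ttn was raised in aged libraries by as large a log2 fold change. The choice of Baiap3, Bzrap1 and Ttn for a large rise had made this likely in advance, so it says nothing about their surroundings.

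The pathway around Baiap3 and Bzrap1 was examined with 75 other genes of vesicle tethering, priming and fusion. Of these, 52 were tested and 11 (21.2%) were called, 7 higher and 4 lower, with a median log2 fold change of 0.10, beside 16.7% and 0.02 over all genes. The nearest relatives of Baiap3 with reads were not called. Unc13d, the Munc13 protein that primes cytotoxic granules, was at 159 ± 6.79 CPM in aged and 169 ± 10.9 CPM in young libraries, a log2 fold change of -0.09 (SE 0.0921, edgeR adjusted p = 0.559). Of 6 Munc13 and CAPS priming factors, 3 were tested and 0 were called by edgeR, by DESeq2 or by limma voom, and 0 had an unadjusted p under 0.05. The nearest relatives of Bzrap1 were almost without reads, with at most 1 read per library on Rimbp2 and at most 3 on Rimbp3. Of the RIM genes, whose proteins RIM-binding proteins bind, Rims1 had no reads, Rims2 and Rims4 had at most 3 per library, and Rims3 was at 12.4 ± 1.49 CPM in aged and 11.6 ± 0.983 CPM in young libraries (edgeR adjusted p = 0.674). Bzrap1 was therefore the only RIM-binding protein gene with more than 3 reads in any library, among itself, Rimbp2 and Rimbp3.

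The called genes of the vesicle list were 5 SNARE proteins and regulators, 5 Rab and C2-domain effectors and 1 active zone gene. Stx11, a syntaxin of cytotoxic granule release, rose from 21.6 ± 1.41 to 46.1 ± 6.97 CPM, by 1.09 on the log2 scale (SE 0.126, edgeR adjusted p = 0.00149), and the call held without each library in turn. Rph3a, a Rab3 effector, held 19, 13 and 16 reads in aged libraries and 2, 0, 1 and 0 in young libraries (edgeR adjusted p = 0.00362). Cplx2, a complexin that clamps SNARE complexes, fell from 11.1 ± 5.27 to 2.49 ± 1.91 CPM (edgeR adjusted p = 0.0355), and the call held in 3 of 7 fits without 1 library. Ppfia4, a liprin scaffold of release sites, fell from 8.39 ± 0.797 to 2.67 ± 1.74 CPM (edgeR adjusted p = 0.0196), and the call held in 4 of 7. Further called genes included Vamp8, Rab3a, Sytl3 and Syt11, which were higher, and Snap23 and Sytl2, which were lower, each by at most 0.79 on the log2 scale in either direction. The call of Syt11 held in 16 of 16 alternative fits, those of Vamp8, Snap23 and Sytl2 in 9, that of Sytl3 in 6 and that of Rab3a in 5.

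The sarcomere, in which titin works, was represented by 88 other genes, of which 39 were tested and 9 (23.1%) were called, 4 higher and 5 lower, beside 16.7% of all genes called, 9.8% higher and 6.94% lower. The median log2 fold change was 0.02, the same as over all genes. Tcap, Neb, Myom1 and Capn3, whose proteins bind titin or lie beside it, are given first. Tcap, the titin cap protein of the Z-disc, had at most 5 reads in any library and was too low to test. Neb, the giant protein of the thin filament, was at 71.5 ± 23.3 CPM in aged and 68.7 ± 16.9 CPM in young libraries, a log2 fold change of 0.06 (edgeR adjusted p = 0.902). Myom1, a ligand of titin in the M-band, was at 1.18 ± 0.726 CPM in aged and 1.16 ± 0.259 CPM in young libraries (edgeR adjusted p = 0.984). Capn3, a protease anchored on titin, was at 27.1 ± 3.44 and 34.6 ± 7.98 CPM (edgeR adjusted p = 0.221). Ttn thus was higher in aged libraries while, of these 4 genes, the 3 that could be tested were not called. Other genes of the list whose proteins bind titin were called, such as Actn2, the alpha-actinin of the Z-disc, at -1.23 on the log2 scale (edgeR adjusted p = 0.0421).

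The called sarcomere genes had fewer reads than Ttn or went the other way. Myh3, the embryonic myosin heavy chain, held 36, 18 and 23 reads in aged and 1, 1, 1 and 0 in young libraries (edgeR adjusted p = 0.00101). Tnni3, the cardiac troponin I, held 27, 28 and 34 reads against 4, 4, 9 and 4, a log2 fold change of 2.76 (SE 0.365, edgeR adjusted p = 0.00258). Synpo2, an actin-binding protein of the Z-disc, rose from 2.47 ± 0.335 to 7.85 ± 1.56 CPM, by 1.66 on the log2 scale (edgeR adjusted p = 0.00223). Tnnt2, the cardiac troponin T, fell from 3.39 ± 1.26 to 1.17 ± 0.272 CPM (edgeR adjusted p = 0.0283), and the call held in 2 of 7 fits without 1 library. Tmod3 and Actn1 were lower, calls that held in 15 of 16 alternative fits. Tpm2 was higher and Actn2 and Cmya5 were lower, but these calls held in only 6 of 15, 9 of 16 and 8 of 16 alternative fits.

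The partners after which the genes are named were counted too, 22 genes of TSPO and of the brain angiogenesis inhibitor receptors with their associated proteins. Of these, 18 were tested and 0 were called by edgeR, with 3 at an unadjusted p under 0.05, 1 called by DESeq2 (Elmo2) and 0 by limma voom, beside 16.7% of all genes called by edgeR. Tspo, the binding partner of Bzrap1, was at 92.0 ± 5.88 CPM in aged and 79.4 ± 8.04 CPM in young libraries, a log2 fold change of 0.21 (SE 0.104, edgeR adjusted p = 0.197). The log2 fold changes of the 18 genes ran from -0.35 to 0.99, all under those of Baiap3 and Bzrap1, which their choice had made likely.

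**Figure D4:**
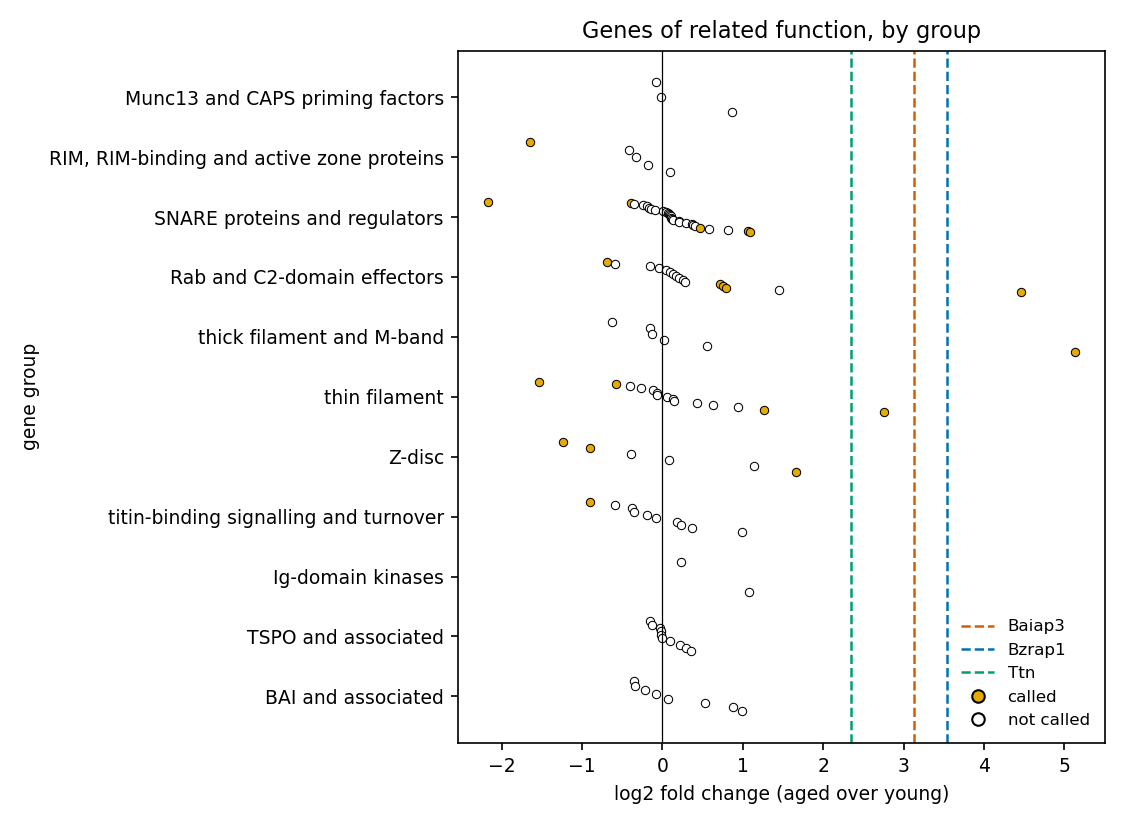
Log2 fold change of aged over young libraries (x) for each tested gene of 11 groups of related function (rows), with filled circles for called genes, open circles for the others, and dashed lines for Baiap3, Bzrap1 and Ttn. Most genes lie close to 0, and the points beyond all 3 dashed lines are Rph3a and Myh3, whose fitted values rest on at most 2 reads in any young library.

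As the plot of groups shows, 2 genes of these lists, Rph3a and Myh3, had fitted log2 fold changes beyond those of all 3 genes, and 1 more, Tnni3, had one beyond that of Ttn.

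Length was examined because Ttn has 116.8 kb of exon, the second longest of 13873 tested genes with a known length. The median log2 fold change fell with exon length, from 0.22 in 1073 genes under 1 kb to -0.10 in 1114 genes of 10 to 20 kb and -0.13 in 95 genes of 20 kb or more. Ttn stood at 2.34, above these medians, which its choice had fixed. Of 1209 other genes with 10 kb of exon or more, 231 (19.1%) were called, 94 higher (7.78%) and 137 lower (11.3%), beside 16.7%, 9.8% and 6.94% of all genes. Of the 1209, 8 had a larger log2 fold change than Ttn. Among them, Muc16, a membrane mucin, held 130, 120 and 144 reads in aged and 0 in each young library, and Rasgrf1, a Ras exchange factor, held 48, 29 and 29 against 0, 0, 0 and 1. Thsd7a held 14, 14 and 13 reads against 0, 2, 0 and 0. In contrast, Ryr2, the calcium release channel of cardiac muscle, held 2, 5 and 4 reads in aged and 268, 235, 237 and 241 in young libraries. The long genes with the highest mean CPM were Ptprc (-0.12), Epb41 (0.35), Myh9 (-0.28), Macf1 (-0.65) and Lars2 (-0.57). Of these Macf1 was called (edgeR adjusted p = 0.0301), a call that held in 2 of 7 fits without 1 library. The sign of Lars2 rested on young replicate 1, at 4286 CPM. Its other young libraries were at 99.1 to 180 CPM, and its aged libraries at 223 to 1912 CPM. When trends with GC content and length were removed from each library, the log2 fold changes were 3.18 for Baiap3, 3.65 for Bzrap1 and 2.48 for Ttn.

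**Figure D5:**
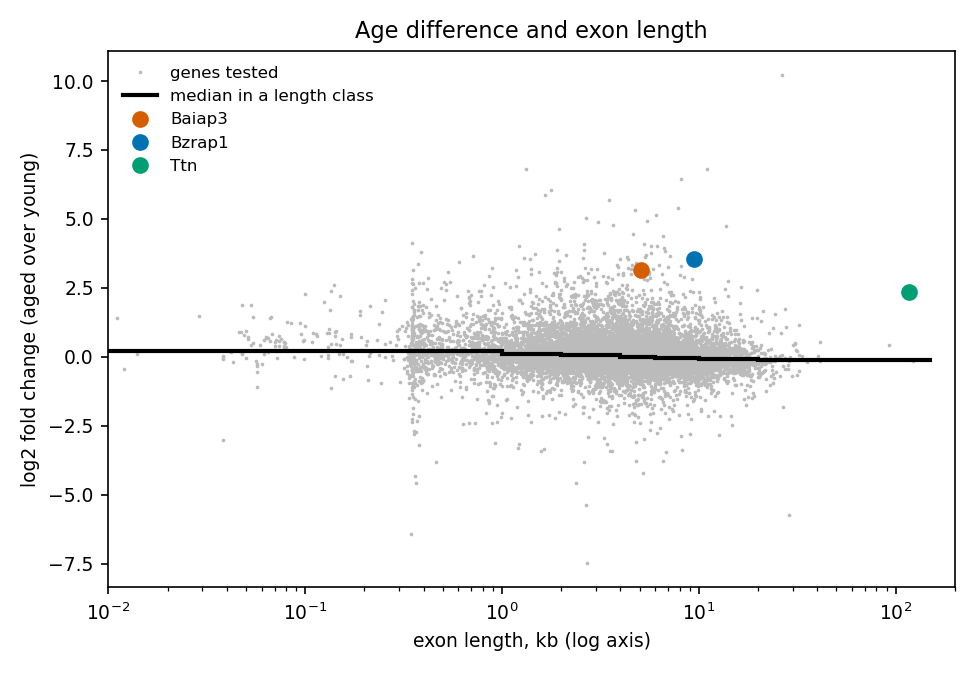
Log2 fold change of aged over young libraries (y) against exon length in kb (x, log axis), with a grey point for each tested gene, black lines for the median in each of 7 length classes, and coloured points for the 3 genes. The medians run from 0.22 to -0.13, and Ttn lies at the far right at 2.34.

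Markers of other cells were measured beside the 3 genes, and their calls are given beside 9.8% of all genes called higher and 6.94% called lower. In bulk samples, fewer cells of a type and less RNA per cell cannot be told apart. Of 11 striated muscle markers, 4 were tested and 0 were called by edgeR, DESeq2 or limma voom, with 1 at an unadjusted p under 0.05. The summed level of all 11 was 72.4 to 111 CPM in aged and 60.4 to 98.0 CPM in young libraries, mostly of Neb. Of these markers, Myh2, Myh4 and Mb had no reads, and Ckm, Acta1, Myh1 and Tcap had at most 5 in any library, beside 193 to 1214 reads on Ttn. Mylpf, a myosin light chain, had 106 to 160 reads in every library (log2 fold change 0.56, edgeR adjusted p = 0.063), Tnnt3 had 29 to 53 and Tnni2 had 2 to 28. Of 9 neuron or neuroendocrine markers, 3 were tested and 1, Eno2, was higher, with a sum of 13.4 to 18.1 CPM in aged and 9.24 to 13.7 in young libraries. Scg2, which was too low to test, held 5, 6 and 27 reads in aged and at most 1 in each young library, while Snap25, Syt1, Chga, Chgb and Stmn2 had at most 4 reads in any library and Syp had a log2 fold change of 0.02. Of 10 neutrophil markers, 3 were higher, and their sum was 674 to 5342 CPM in aged and 317 to 1008 in young libraries. S100a8 alone held 13110, 4393 and 1658 reads in the aged libraries and 1268, 912, 2909 and 1165 in the young libraries. In aged replicate 1, where S100a8 was highest, Ttn was the highest of the aged libraries in CPM, Bzrap1 lay between the others and Baiap3 was the lowest. Without aged replicate 1, which also had the most mitochondrial reads, the log2 fold changes were 3.16 for Baiap3, 3.56 for Bzrap1 and 2.26 for Ttn.

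Against the same shares over all genes, all 5 naive T cell markers fell, with a sum of 944 to 1184 CPM in aged and 1863 to 2071 CPM in young libraries. Of 6 effector memory markers, 2 rose, and the sums overlapped, at 797 to 1067 CPM in aged and 648 to 955 in young libraries. Ccl5, one of the 2, held 977, 831 and 1342 reads against 320, 470, 609 and 535 (log2 fold change 1.41, edgeR adjusted p = 0.00384). Of 7 Treg markers, 1, the general T cell gene Cd3e, was called by edgeR and rose, with 6 at an unadjusted p under 0.05, 3 called by DESeq2 and 2 by limma voom. Their sum was 2734 to 3303 CPM in aged and 2188 to 3312 CPM in young libraries. Of 5 platelet markers, 4 were tested and 1 rose, with a sum over all 5 of 20.2 to 39.5 and 8.20 to 17.3 CPM. Of 9 monocyte or macrophage markers, 3 fell, with a sum of 406 to 557 and 523 to 613 CPM. Of 6 dendritic cell markers, Zbtb46 rose and Siglech and Cd209a fell, with a sum of 40.9 to 59.4 and 54.2 to 72.02 CPM. Of 5 plasma cell markers, 1, Prdm1, rose, with a sum of 748 to 1301 and 325 to 1999 CPM. Of 6 NK cell markers, 1, Klrb1c, fell, with a sum of 68.4 to 103.7 and 76.3 to 108.7 CPM. The 6 erythroid markers summed to 12688 to 156886 CPM in aged and 12381 to 116148 CPM in young libraries, and the 2 CD8 T cell markers to 45.4 to 82.0 and 48.8 to 92.7 CPM. In these last 2 lists, 0 genes were called by edgeR, DESeq2 or limma voom, and 0 had an unadjusted p under 0.05. Of 5 B cell markers, 0 were called by edgeR, with 2 at an unadjusted p under 0.05, 2 called by DESeq2 and 1 by limma voom, and their sum was 706 to 1418 and 1158 to 1753 CPM. The part of these cell types in the levels of Baiap3, Bzrap1 and Ttn was not tested. When libraries were scaled to the summed reads of Cd3d, Cd3e and Cd3g in place of all genes, the log2 fold changes were 2.86 for Baiap3, 3.25 for Bzrap1 and 2.08 for Ttn.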

How the data were processed

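The 3 aged and 4 young RNA-sequencing libraries (SMART-Seq v4 cDNA, without molecular identifiers) were analysed. The authors deposited raw read counts per Ensembl gene for each library. Reads assigned to none or to more than 1 gene made up 13.1% to 20.9% and were left out. The layout is like that of HTSeq-count, and whether strand was used is not given in the sources used here, so reads of overlapping and antisense genes are uncertain. The authors also deposited signal values for 25469 genes, which equal the count over a size factor per library of 0.849 to 1.21. That table further holds the authors' own fold changes and p-values, under column names of DESeq2, which were not used. The study's methods name limma for the comparison. The submitters' processing notes name mm10, and the aligner and annotation are not given in the sources used here. Of 47729 gene identifiers, 47310 matched GENCODE M21 on GRCm38, which gave coordinates and exon lengths (union of exons). Bzrap1 was matched by its identifier, and Sept4 was named from that annotation because the deposited symbol reads as a date. Promoter sequences are from RefSeq on GRCm38.p6.

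The ages were compared by the quasi-likelihood test of edgeR 4.0.16 (R 4.3.3) with TMM scaling, the filterByExpr filter by age and no covariate, over all 7 libraries. Benjamini-Hochberg adjustment ran over all 13904 genes tested. A gene was called at an adjusted p under 0.05, and SE was obtained by dividing the log2 fold change by the square root of F. The fit was tested on simulated data. Counts of 3 or fewer were taken as the limit of detection, equal to 0.220 to 0.279 CPM by library size before TMM scaling. This limit covers counting error only.

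Baiap3, Bzrap1 and Ttn, and the gene lists, were chosen with earlier results of these data known. The genes named are these 3, their tested neighbours within 250 kb, the 4 called genes of each list with the largest change, list genes that bind or resemble one of the 3, the 5 long genes with the highest mean, the 5 genes most like each, and Foxp3, Cd4 and Il2ra. Some genes that this rule names are not reported here. Elmo2, Magi1, the further called genes of the vesicle and sarcomere lists and single markers were named after their values were seen. Alternatives were DESeq2 1.42.0, limma voom 3.58.1, RLE or library size scaling, other filters, removal of mitochondrial, immunoglobulin and haemoglobin genes, removal of GC and length trends, the deposited values as log2(value + 1), a replicate block and leaving out each library. Scaling to Cd3d, Cd3e and Cd3g was chosen after seeing the data.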

Additional observations from a re-analysis of the deposited data

Results flagged for a closer look

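Each group of 4 young libraries of the 64 named genes with enough reads was checked for a library far from the other 3, and 7 had one. Chance alone gives this in about 1 in 20 groups. Baiap3, Bzrap1 and Ttn were not among the 7.

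Myom1, an M-band ligand of titin, was at 0.771 CPM in young replicate 2 and at 1.26 to 1.31 in the others. Cplx2 was at 19.0 CPM in young replicate 3 and at 8.46 to 8.56 in the others. Tnni3 was at 0.711 CPM in young replicate 3 and at 0.280 to 0.350 in the others. Of the neighbours of Baiap3, Unkl was at 17.8 CPM in young replicate 4 and at 22.8 to 23.9 in the others. Of the neighbours of Bzrap1, Mks1 was at 9.46 CPM in young replicate 4 and at 10.1 to 10.2 in the others, and Rnf43 was at 24.3 CPM in young replicate 2 and at 18.9 to 19.1 in the others. Lars2, a long gene, was at 4286 CPM in young replicate 1 and at 99.1 to 180 in the others.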

How the results depend on the processing

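The log2 fold changes of Baiap3, Bzrap1 and Ttn moved by less than the spread between replicates under 17 of 18 alternatives each. Without each library in turn they ran from 3.10 to 3.20, from 3.42 to 3.62 and from 2.22 to 2.43. Scaling to Cd3d, Cd3e and Cd3g, chosen after seeing the data, moved them to 2.86, 3.25 and 2.08. In that scaling aged libraries held 9733 to 11570 and young libraries 8668 to 14179 reads on these genes.

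Counts of called genes depended on which libraries were used. Without each library in turn, genes called ran from 1237 to 3058 of all tested (2327 with all libraries), from 4 to 16 of the vesicle list, from 5 to 8 of the sarcomere list, from 0 to 1 of the partner list, from 1 to 6 of the neighbours and from 123 to 369 of the long genes. The lowest of these came without young replicate 4 for all genes, young replicate 1, 3 or 4 for the vesicle list, young replicate 1 or 3 for the sarcomere list, aged replicate 3 or young replicate 1 for the neighbours, and young replicate 3 or 4 for the long genes. The highest counts of all genes and of long genes came without aged replicate 1. For all genes the count also fell to 1262 without aged replicate 3, to 1315 without young replicate 1 and to 1270 without young replicate 3. With library size only, 3 neighbours were called. By DESeq2, by RLE scaling and without mitochondrial, immunoglobulin and haemoglobin genes, 1 partner gene was called, Elmo2 each time. Without aged replicate 1 it was also Elmo2, which was lower in aged libraries in all these fits. Without young replicate 2 it was Magi1, which was higher, by 1.14 on the log2 scale.

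Same-numbered libraries did not deviate together (correlations of -0.0915, -0.292 and -0.138). These values gave no sign that the numbers pair the samples, but they cannot exclude it. With the replicate block, and without young replicate 4, called genes numbered 279 over all genes, 2 in the vesicle list, 1 in the sarcomere list, 0 neighbours and 22 long genes. Fits without a library rest on fewer samples, and the cause of these changes was otherwise not tested. Genes under about 3 reads in every library of both ages cannot be compared at this depth. Where only 1 age was that low, the size of the fold change is uncertain.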
